A study of Mus musculus with 35 samples.

Results

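The genes for 10 acetylcholine receptor subunits and receptors were followed in the mouse amygdala, 7 for nicotinic subunits (Chrna3, Chrna4, Chrna5, Chrna6, Chrna7, Chrnb2 and Chrnb3) and 3 for muscarinic receptors (Chrm1, Chrm2 and Chrm3). They were chosen by symbol, matched to the Ensembl identifiers of the count tables, from 52636 genes in all, and Chrna6 was included with its absence from 1 group already known. The 35 RNA-seq libraries analysed here came from 19 adult female mice, each library holding amygdala tissue cut out of brain sections by laser capture. The mice belonged to the inbred strain C57BL/6J or to B6D2F1N, an F1 hybrid of a C57BL/6 and a DBA/2 parent, and lived in standard cages, handled as a mock treatment, or in cages with daily access to an enriched playground cage. All of them, controls included, had been trained and tested in a touchscreen task of cognitive judgment bias. The anterior portion gave 4 libraries of C57BL/6J mice in standard housing, 2 of C57BL/6J in enriched housing, 5 of B6D2F1N in standard and 5 of B6D2F1N in enriched housing. The posterior portion gave 4, 4, 5 and 6 libraries of the same groups, and 16 mice, 6 C57BL/6J and 10 B6D2F1N, had a library of each portion. The mice were co-housed, and cage numbers were not used here. "Anterior" and "posterior" follow the labels, since the section coordinates given with the methods appear to run in the opposite order to these names.

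Acetylcholine reaches the amygdala mainly from neurons of the basal forebrain, whose terminals are densest in the basolateral nucleus. Nicotinic receptors are ion channels of 5 subunits around a pore that opens when acetylcholine binds, and the subunits decide which ions pass and how tightly nicotine is held. Muscarinic receptors act through G proteins, Chrm1 and Chrm3 by way of phospholipase C, and Chrm2 by way of the inhibitory G proteins that lower cyclic AMP and transmitter release. In the brain, Chrna4 and Chrnb2 encode the main high-affinity nicotinic receptor, Chrna7 forms a calcium-permeable receptor of a single subunit type, and Chrna6 with Chrnb3 is best known from midbrain dopamine neurons.

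The 7 nicotinic genes belong to the Cys-loop family, named for a pair of cysteines that enclose a loop of the extracellular domain. The 45 coding bases of that loop, 15 codons, were read from the GENCODE transcripts (GRCm38), and are shown because they mark what unites the nicotinic members and how far their messages differ. They are given 5′ to 3′ in the sense of the gene with both cysteine codons in capitals.
Chrna3, exon 5, chr9:55016007-55016051, minus strand: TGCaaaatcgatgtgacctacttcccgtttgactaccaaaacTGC
Chrna4, exon 5, chr2:181029431-181029475, minus strand: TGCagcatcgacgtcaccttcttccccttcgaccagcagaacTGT
Chrna5, exon 5, chr9:55004425-55004469, plus strand: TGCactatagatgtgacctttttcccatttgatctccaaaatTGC
Chrna6, exon 5, chr8:27407332-27407376, minus strand: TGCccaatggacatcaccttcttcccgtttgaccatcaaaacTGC
Chrna7, exon 6, chr7:63107658-63107702, minus strand: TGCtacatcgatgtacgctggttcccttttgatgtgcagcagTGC
Chrnb2, exon 5, chr3:89761500-89761544, minus strand: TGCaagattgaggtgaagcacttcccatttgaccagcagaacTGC
Chrnb3, exon 5, chr8:27393711-27393755, plus strand: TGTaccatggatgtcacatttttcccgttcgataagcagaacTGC
The closest pair in this stretch was Chrna3 and Chrna6, with 36 of 45 bases identical (80%), and the most distant was Chrna6 and Chrna7, with 26 of 45 (57.8%). Chrna3 and Chrna5 are neighbours on chromosome 9, and Chrna6 and Chrnb3 are neighbours on chromosome 8. The reads were 72 bases long, and no 72-base window of any member, taken every 36 bases, matched another receptor gene with at most 2 mismatches. Chrnb2 shares 16.3% of its exon bases with Adar on the opposite strand, Chrm1 5.07% with Gm22820 and Chrm2 2.35% with 9330158H04Rik, and reads from those stretches cannot be told apart here, since the strand setting of the counting was not given in the sources used.

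Each library held between 16938534 and 27352623 counts on genes, with a median of 21409708, and levels are given in CPM, the count scaled to the size of the library. Chrm1, Chrm2, Chrm3, Chrna4, Chrna7 and Chrnb2 had counts in all 35 libraries, Chrna3 in 33, Chrna5 in 27, Chrnb3 in 21 and Chrna6 in 15. In 8 libraries Tcf7l2, a transcription factor highest in thalamic neurons, was above 90 CPM, against at most 65.5 CPM in the others. These were 7 posterior libraries (B6D2F1N standard mice 2 and 3, B6D2F1N enriched mice 1, 3 and 6, C57BL/6J enriched mice 2 and 3) and the anterior library of C57BL/6J enriched mouse 1. For portion, and for the posterior comparisons, values without them are given beside the members that are called, or whose direction or call they change, except for sign changes of uncalled members that stand with the limits. The pathway lists are given with them only. In the portion test of C57BL/6J, leaving out the mice with such a library removes every enriched mouse. The 4 mice left were all in standard housing, so that Tcf7l2 and housing cannot be told apart in those values. Both libraries of B6D2F1N standard mouse 1 had 0 counts of Xist, against at least 1191 in every other library, while no library had more than 1 count over Uty, Kdm5d, Ddx3y and Eif2s3y of the Y chromosome. The basolateral markers were present throughout: the 8 genes of that list summed to between 428 and 1622 CPM in the anterior and between 232 and 1017 CPM in the posterior libraries.

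Per kilobase of exon, Chrm1 had the highest level by far. Its mean was 47.2 CPM per kb ± 18.9 (SD, n = 35 libraries), which made up 66.9% of the sum over the 10 genes. Chrnb2 followed at 9.08 ± 2.22, Chrna4 at 5.7 ± 3.19 and Chrm2 at 4.96 ± 4.21 CPM per kb. The other members were lower: Chrm3 at 1.21 ± 0.84, Chrna7 at 1.1 ± 0.585, Chrna3 at 0.447 ± 0.387, Chrna5 at 0.322 ± 0.356, Chrna6 at 0.287 ± 0.665 and Chrnb3 at 0.285 ± 0.397 CPM per kb. Chrm1 exceeded Chrnb2 in 35 of 35 libraries, Chrnb2 exceeded Chrna4 in 30, and both Chrm2 over Chrm3 and Chrna7 over Chrna3 held in 29. The other neighbours differed by less than their spread, with Chrna4 above Chrm2 in 22 libraries, Chrm3 above Chrna7 in 16, Chrna3 above Chrna5 in 22, Chrna5 above Chrna6 in 18 and Chrna6 above Chrnb3 in 10 of 35. The abundant pair of nicotinic subunits was thus Chrna4 and Chrnb2, the partners of the main high-affinity receptor.

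**Figure D1:**
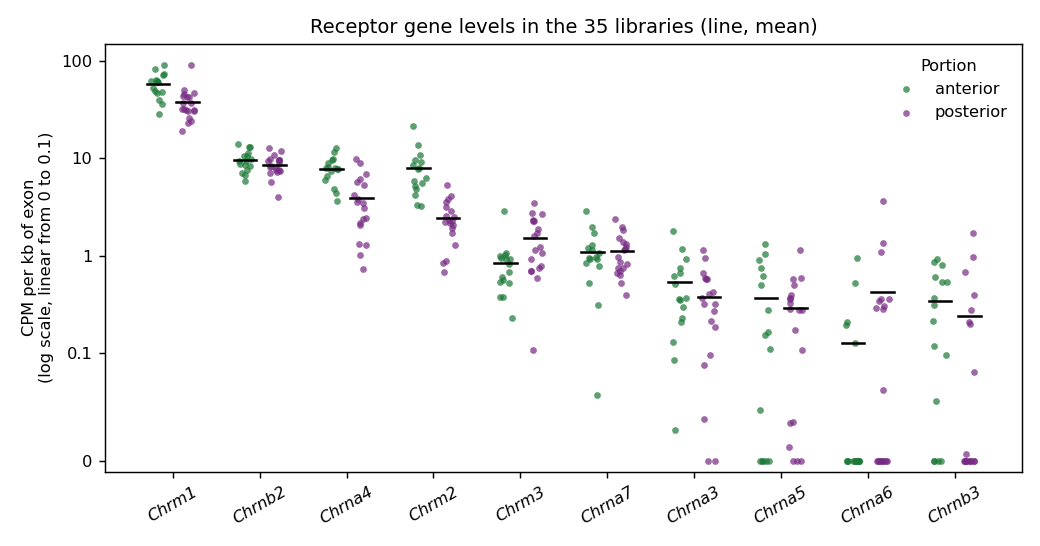
Level of each receptor gene, in CPM per kb of exon on a log scale that is linear from 0 to 0.1, in the 16 anterior and 19 posterior libraries; points are libraries and lines are means. Chrm1 sits highest, Chrm2 and Chrna4 are lower in the posterior libraries, and Chrna3, Chrna5, Chrna6 and Chrnb3 have libraries at 0.

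Within mice, Chrm2 was lower in the posterior portion in both strains, Chrna4 passed the test as lower in C57BL/6J and Chrm1 in B6D2F1N, and Chrm3 had the opposite sign in both strains without passing it. In C57BL/6J, 2 of the 9 members tested were called, both lower in posterior, where edgeR (quasi-likelihood test, p adjusted by Benjamini and Hochberg over all genes) called 3.64% of 25751 genes. In B6D2F1N, 2 of 10 members were called, both lower, against 4.00% of 27761 genes. Chrna6 has no test in any comparison that includes the posterior libraries of C57BL/6J mice in standard housing, since its absence there was known when it was chosen. The median log2 fold change, posterior over anterior, was -0.53 over the 9 members in C57BL/6J beside 0.01 over all genes, and -0.06 over the 10 members in B6D2F1N beside 0.15. In bulk tissue, fewer cells of a type and less RNA per cell cannot be told apart.

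Chrm2, the inhibitory muscarinic receptor, showed the most regular difference. In C57BL/6J its anterior levels were 28.9, 48, 35.6 and 37.9 CPM in standard mice 1 to 4 and 31.6 and 25.5 CPM in enriched mice 1 and 3. The posterior levels of the same mice were 12.6, 25.1, 5.34, 32.4, 19.2 and 4.08 CPM. All 6 mice were lower in posterior, although the ranges of the portions overlapped. The log2 fold change was -1.38 (SE 0.3, edgeR adjusted p = 0.0123), a 2.6-fold difference. In the 10 B6D2F1N mice, Chrm2 ranged from 19.8 to 130 CPM in the anterior portion, with a mean of 56.2 ± 32.3 (SD), and from 7.86 to 23.1 CPM in the posterior, with a mean of 14.6 ± 4.68. Again every mouse, 10 of 10, was lower in posterior, and the log2 fold change was -1.80 (SE 0.23, adjusted p = 0.00013). In C57BL/6J the call was lost without standard mouse 3 (log2 fold change -1.10, adjusted p = 0.0537). It was also lost without the 2 mice with a library high in Tcf7l2, which are the enriched ones (-1.21, adjusted p = 0.0708, 4 standard mice). Without the mouse as a block, the log2 fold change in the libraries of all 6 mice was -1.07 (adjusted p = 0.174). Among B6D2F1N mice it held without the 5 mice with such a library (-2.42, adjusted p = 9.16e-05) and without each mouse in turn, the mouse lacking Xist included.

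Chrna4, the subunit that pairs with Chrnb2, was also lower in posterior libraries. Its anterior levels in C57BL/6J were 32.7, 47.8, 18.4 and 36.9 CPM in standard mice 1 to 4 and 49.4 and 29.9 CPM in enriched mice 1 and 3. The corresponding posterior levels were 12.4, 17.9, 5.11, 6.55, 27 and 10.3 CPM. Each of the 6 mice fell, by a log2 fold change of -1.59 (SE 0.22, adjusted p = 0.000308). The call held without each mouse in turn. It also held without the mice with a library high in Tcf7l2 (-1.75, adjusted p = 0.00177, 4 standard mice). Without the block it held in the same libraries (-1.45, adjusted p = 0.0249), but not over all libraries of the strain (-1.13, adjusted p = 0.0747). In B6D2F1N the anterior mean was 41.2 ± 12.7 CPM and the posterior mean 23.3 ± 15.9 CPM (n = 10), with 8 of 10 mice lower in posterior. There the log2 fold change of -1.11 (SE 0.36) did not pass the edgeR test (adjusted p = 0.104), while it passed DESeq2 (adjusted p = 0.0325). The 2 mice that were higher in posterior were standard mice 2 and 3, at 45.2 and 49.7 CPM against 39.4 and 22 CPM in anterior, and both posterior libraries were high in Tcf7l2 (220 and 246 CPM). Without the 5 B6D2F1N mice with such a library, the log2 fold change was -2.09 (adjusted p = 0.00864), and without standard mouse 3 alone it was -1.34 (adjusted p = 0.0248). The Tcf7l2 limit was set after the data were seen, and these 5 mice include both that were higher in posterior. The calls gained by leaving mice out are therefore not separate support for a fall in B6D2F1N. Its partner Chrnb2 did not pass the test of portion, at 85.3 ± 19.3 against 71.2 ± 25 CPM in C57BL/6J (log2 fold change -0.31, SE 0.21, adjusted p = 0.611) and 78 ± 20.4 against 72.3 ± 14.8 CPM in B6D2F1N (-0.09, SE 0.15, adjusted p = 0.841).

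Chrm1, the excitatory muscarinic receptor of forebrain projection neurons, was lower in posterior by a smaller fold. In B6D2F1N its mean was 351 ± 110 CPM in anterior and 217 ± 68.5 CPM in posterior libraries, with 9 of 10 mice lower, a log2 fold change of -0.69 (SE 0.17, adjusted p = 0.027). The call was lost when any of 5 mice was left out, standard mouse 1 or 2 or enriched mouse 2, 3 or 4, with log2 fold changes of -0.58 to -0.69 and adjusted p of 0.0539 to 0.0889, and it was lost without the mice with a library high in Tcf7l2 (-0.68, adjusted p = 0.206). In C57BL/6J the mean was 421 ± 99.1 CPM in anterior and 309 ± 146 CPM in posterior, and 5 of 6 mice were lower (log2 fold change -0.53, SE 0.22, adjusted p = 0.28). The exception was enriched mouse 1, with 317 CPM in anterior and 593 CPM in posterior, the highest Chrm1 level of all libraries. Without that mouse the log2 fold change was -0.78 (adjusted p = 0.015). Without both mice with a library high in Tcf7l2, that is without any enriched mouse, it was -0.83 in the 4 standard mice (adjusted p = 0.0198). Both of these fits leave out the only mouse that was higher in posterior, so that their calls are not separate support.

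Chrm3, the other phospholipase C-coupled receptor, had the opposite direction. In C57BL/6J it was higher in posterior in 6 of 6 mice, with a mean of 4.6 ± 1.72 CPM in anterior and 10.1 ± 6.28 CPM in posterior (log2 fold change 1.02, SE 0.32), which missed the edgeR threshold (adjusted p = 0.099) and passed DESeq2 (adjusted p = 0.0162). In B6D2F1N it was higher in 7 of 10 mice, at 5.61 ± 4.59 against 9.1 ± 5.16 CPM (log2 fold change 0.83, SE 0.38, adjusted p = 0.299). Without the mice with a library high in Tcf7l2 the log2 fold changes were 0.87 and 0.54 (adjusted p = 0.389 and 0.777).

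**Figure D2:**
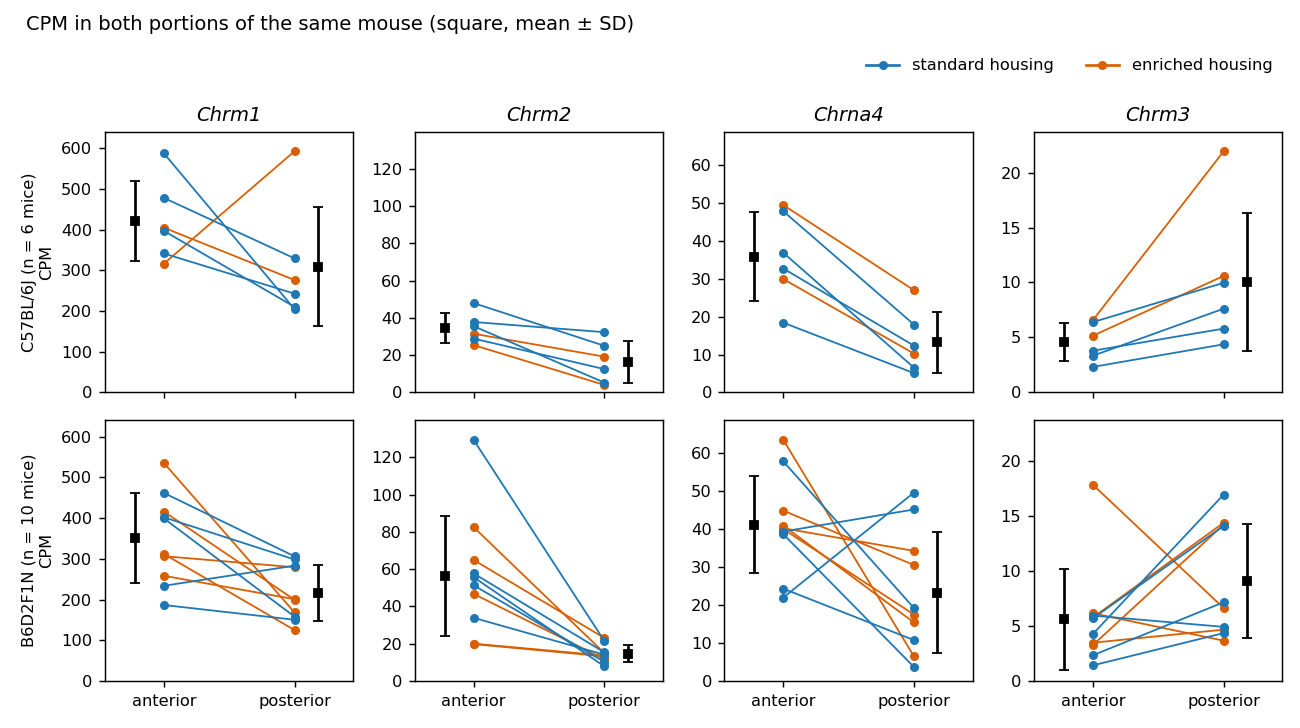
Level of Chrm1, Chrm2, Chrna4 and Chrm3 in CPM in both portions of the 6 C57BL/6J mice (upper row) and the 10 B6D2F1N mice (lower row); lines join the libraries of a mouse, blue for standard and orange for enriched housing, and squares are means with SD. Chrm2 falls in all 16 mice, Chrna4 in 14, Chrm1 in 14, and Chrm3 rises in 13.

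The remaining nicotinic members were low, and none passed the test of portion. Chrna7 had nearly the same mean in both portions, 5.87 ± 3.61 and 5.99 ± 3.23 CPM in C57BL/6J and 4.37 ± 2.58 and 4.69 ± 1.95 CPM in B6D2F1N, with log2 fold changes of 0.06 (SE 0.43) and 0.20 (SE 0.49). For Chrna3, a subunit of ganglionic and habenular receptors, the means were 1.76 ± 0.96 and 1.71 ± 1.64 CPM in C57BL/6J and 3.4 ± 2.83 and 2.5 ± 1.7 CPM in B6D2F1N. Chrna5, an accessory subunit, was at 0.861 ± 0.736 and 1.53 ± 1.2 CPM in C57BL/6J and at 1.31 ± 1.63 and 0.476 ± 0.564 CPM in B6D2F1N. Their standard errors, between 0.56 and 1.69 on the log2 scale, were as large as or larger than most of their log2 fold changes (-1.0 and -0.04 for Chrna3, 0.95 and -0.03 for Chrna5), so that these data set wide limits on any difference. Chrnb3 was at 1.18 ± 1.27 CPM in anterior and 0.0935 ± 0.21 CPM in posterior libraries of C57BL/6J, lower in 5 of 6 mice (log2 fold change -4.37, SE 1.58, adjusted p = 0.173), and at 2.75 ± 2.35 and 1.49 ± 2.15 CPM in B6D2F1N (-1.69, SE 1.44, adjusted p = 0.624). Chrna6 in B6D2F1N was at 0.369 ± 0.866 CPM in anterior and 0.717 ± 0.983 CPM in posterior libraries (log2 fold change 2.92, SE 1.67, adjusted p = 0.437). Without the 5 B6D2F1N mice with a library high in Tcf7l2, the Chrna6 means were 0.554 and 0.206 CPM, and the log2 fold change turned to -0.11 (SE 2.52, adjusted p = 0.996). Those of Chrnb3 were 2.34 and 0.249 CPM (-4.97, SE 1.88, adjusted p = 0.247), and those of Chrna5 1.97 and 0.044 CPM (-4.87, SE 2.58, adjusted p = 0.46). Chrna7 also changed sign in both strains (-0.15 and -0.27) and Chrna3 in B6D2F1N (0.28), with adjusted p of 0.891 to 0.964.

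**Figure D3:**
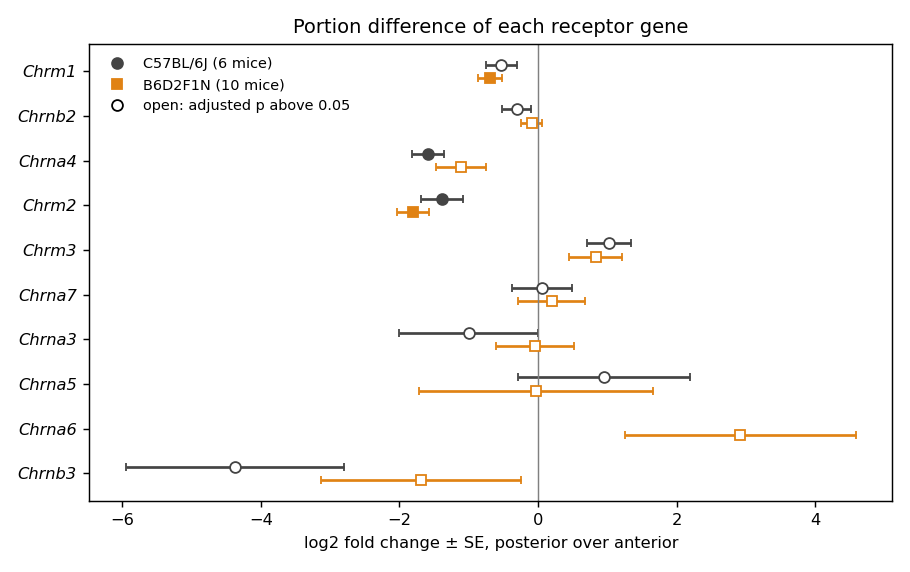
Log2 fold change of each receptor gene, posterior over anterior, with its standard error, in C57BL/6J (circles, 6 mice) and B6D2F1N (squares, 10 mice); filled symbols passed the edgeR threshold. Chrna4 and Chrm2 in C57BL/6J and Chrm1 and Chrm2 in B6D2F1N are filled, all to the left of 0, and Chrna6 is tested in B6D2F1N only.

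RefSeq start regions were at hand for 7 of the 10 members. The promoters of Chrna4 and Chrm2, the members called lower in posterior in C57BL/6J, are printed from 250 bases before to 50 bases after the RefSeq start (GRCm38.p6), 5′ to 3′ in the sense of the gene, with each GC box (GGGCGG on either strand) in capitals.
Chrna4, chr2:181039128-181039427, minus strand: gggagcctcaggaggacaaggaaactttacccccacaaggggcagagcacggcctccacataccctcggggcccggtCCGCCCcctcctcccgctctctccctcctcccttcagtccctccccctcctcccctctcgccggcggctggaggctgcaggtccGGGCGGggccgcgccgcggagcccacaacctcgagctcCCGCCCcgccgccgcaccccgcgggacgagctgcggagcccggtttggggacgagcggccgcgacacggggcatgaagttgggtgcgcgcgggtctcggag
Chrm2, chr6:36387834-36388133, plus strand: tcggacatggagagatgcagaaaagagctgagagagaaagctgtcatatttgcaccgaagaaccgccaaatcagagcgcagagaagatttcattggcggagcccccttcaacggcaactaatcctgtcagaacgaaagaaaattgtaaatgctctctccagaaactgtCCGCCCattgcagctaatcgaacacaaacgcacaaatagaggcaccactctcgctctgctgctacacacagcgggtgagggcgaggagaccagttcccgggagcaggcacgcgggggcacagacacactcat
Chrna4 held 3 GC boxes and 33 CG dinucleotides, more than 91.4% of the 32851 promoters, and Chrm2 held 1 GC box and 16 CG dinucleotides, more than 67%. A GC box was present in 35.7% of all promoters, and neither window held the letters of the E-box (CANNTG, in 72.3% of promoters) or TATAAA (13.6%). The RefSeq start of Chrna4 lies inside its GENCODE gene, which runs from 181018380 to 181043546.

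Markers of the tissue composition moved with the portion. The summed level of the 8 basolateral excitatory markers was 998 to 1622 CPM in anterior and 464 to 1017 CPM in posterior libraries of the paired C57BL/6J mice, and 428 to 1591 against 232 to 634 CPM in B6D2F1N, with 4 and 5 of the 8 called lower in posterior. Choroid plexus markers ran the other way, from 6.62 to 27.2 CPM in anterior to 118 to 1470 CPM in posterior libraries of C57BL/6J, and from 7.1 to 940 CPM to 353 to 14380 CPM in B6D2F1N. Meningeal markers summed to 51.9 to 86.2 CPM in anterior and 877 to 1763 CPM in posterior libraries of C57BL/6J, and to 35.2 to 94.2 and 48.8 to 1681 CPM in B6D2F1N. Of 6 ependymal markers 2 and 5 were called higher in posterior in C57BL/6J and B6D2F1N, and of 8 inhibitory neuron markers 2 were called lower in each strain. In the same order, 4 and 6 of 6 choroid plexus markers and 1 and 2 of 5 thalamic markers were called higher. Only 1 of 6 meningeal markers was called higher in each strain. Of 6 astrocyte markers, 3 were called higher in C57BL/6J, and 1 higher and 1 lower in B6D2F1N. The summed thalamic markers were at 119 to 548 CPM in anterior and 252 to 551 CPM in posterior libraries of C57BL/6J and at 137 to 334 and 161 to 991 CPM in B6D2F1N. The part of these markers in the portion differences of Chrm1, Chrm2, Chrm3 and Chrna4 was not tested. Among the 7 posterior libraries above 90 CPM of Tcf7l2, Chrna4 had a median of 30.6 CPM (range 10.3 to 49.7) and Chrm3 of 14.2 CPM (6.62 to 16.9). The 12 other posterior libraries had medians of 12.1 CPM (3.68 to 27) for Chrna4 and 5.36 CPM (0.669 to 21.9) for Chrm3, while Chrm2 differed little, at 13.6 CPM (4.08 to 23.1) against 14.2 CPM (5.34 to 32.4).

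The wider cholinergic system was followed in 4 lists. Of 11 other receptor subunits, 9 were tested in C57BL/6J and 8 in B6D2F1N, and none passed the test of portion. Chrm4, an inhibitory receptor of striatal-type neurons, was at 6.02 ± 5.37 against 3.8 ± 2.5 CPM in C57BL/6J and 2.7 ± 2.81 against 1.54 ± 0.946 CPM in B6D2F1N. Chrnb4, the usual partner of Chrna3, stayed low, at 0.5 ± 0.52 against 0.701 ± 0.855 CPM and 0.806 ± 1.07 against 1.14 ± 1.49 CPM.

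Of 9 genes for the synthesis, transport and breakdown of acetylcholine, 1 was called lower in posterior in C57BL/6J and none in B6D2F1N, where 3.64% and 4.00% of all genes were called. The median log2 fold changes were -0.67 and -0.54, beside 0.01 and 0.15 over all genes. The called gene was Chat, choline acetyltransferase, the marker of cholinergic neurons. It had counts in 5 of the 6 anterior libraries and 0 counts in the 6 posterior libraries of the same mice. With 3 counts allowed in each posterior library, the anterior level was at least 8.92-fold higher. Without standard mouse 2, the highest, it was at least 4.07-fold higher. The edgeR adjusted p was 0.0394, but Chat passed the count minimum of this comparison only through its anterior libraries. That p-value is therefore not taken as support. The 6 markers of cholinergic neurons summed to 2.06 to 14.9 CPM in anterior and 0.867 to 5.16 CPM in posterior libraries of these mice, with Chat and Gbx1 at 0 in every posterior one. Chat was not absent from every posterior library of the strain. Of all 4 posterior libraries of C57BL/6J enriched mice, 1 had Chat counts, from a mouse without an anterior library (mean of the 4, 0.401 ± 0.801 CPM). In B6D2F1N Chat was at 0.494 ± 0.846 CPM in anterior and 0.138 ± 0.274 CPM in posterior libraries (adjusted p = 0.603). Ache, the acetylcholinesterase that ends the signal, was at 106 ± 55.8 CPM in anterior and 60 ± 17.2 CPM in posterior libraries of C57BL/6J (log2 fold change -0.75, SE 0.22, adjusted p = 0.0761). In B6D2F1N it was at 100.4 ± 28.9 and 70 ± 20 CPM (-0.53, SE 0.17, adjusted p = 0.104). It was lower in 5 of 6 and 9 of 10 mice. DESeq2 passed it in C57BL/6J (adjusted p = 0.0274) and not in B6D2F1N (0.0528).

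Among 11 accessory proteins of nicotinic receptors, 6 passed the test in C57BL/6J, 4 lower and 2 higher in posterior, and 1 passed in B6D2F1N, beside the same 3.64% and 4.00% of all genes. The medians over the list were -0.53 and -0.50 on the log2 scale, beside 0.01 and 0.15 over all genes. Ly6e fell in both strains, from 393 ± 94.6 to 197 ± 59.2 CPM in C57BL/6J (log2 fold change -1.01, SE 0.19, adjusted p = 0.00306) and from 371 ± 101 to 171 ± 64.9 CPM in B6D2F1N (-1.16, SE 0.21, adjusted p = 0.00314). Lynx1, a membrane-tethered brake on nicotinic receptors, fell in C57BL/6J by 1.22 on the log2 scale (SE 0.26, adjusted p = 0.0104). Ly6g6e (log2 fold change -2.60, adjusted p = 0.00925) and Tmem35a, a chaperone of Chrna7 receptors (-0.53, adjusted p = 0.0436), also fell in C57BL/6J. The 2 that rose in posterior were Lypd1, another member of the same protein family (log2 fold change 2.06, SE 0.25, adjusted p = 6.71e-05), and Ly6h, which limits Chrna7 receptors at the surface (0.97, SE 0.22, adjusted p = 0.0178). In B6D2F1N these 5 genes had log2 fold changes of -1.01 (Lynx1), -2.36 (Ly6g6e), -0.50 (Tmem35a), 0.47 (Lypd1) and 0.47 (Ly6h), with edgeR adjusted p of 0.15 to 0.674. DESeq2 passed Ly6g6e there (adjusted p = 0.0329). Posterior C57BL/6J levels also differed by housing. Lynx1 was at 30.8 ± 3.39 CPM in standard and 102 ± 54.4 CPM in enriched mice (adjusted p, edgeR 0.107, DESeq2 0.000142). Lypd1 was at 580 ± 157 and 239 ± 121 CPM (edgeR 0.234, DESeq2 0.0236).

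Of 17 genes of muscarinic signalling, 5 fell in posterior in C57BL/6J and 4 in B6D2F1N, and none rose, against 541 lower and 396 higher of 25751 genes and 659 lower and 451 higher of 27761. The medians over the 17 were -0.29 and -0.28 on the log2 scale, beside 0.01 and 0.15 over all genes. Plcb1, the phospholipase C downstream of Chrm1, fell from 176 ± 17.7 to 93.5 ± 16.4 CPM in C57BL/6J (log2 fold change -0.93, SE 0.15, adjusted p = 0.000888) and from 156 ± 38 to 86.3 ± 25.9 CPM in B6D2F1N (-0.88, SE 0.14, adjusted p = 0.00108). Kcnq3 and Kcnq5 encode subunits of the M-current potassium channel that muscarinic receptors close. Kcnq3 fell by 0.88 (SE 0.2, adjusted p = 0.0144) and 0.81 (SE 0.18, adjusted p = 0.0147) on the log2 scale in C57BL/6J and B6D2F1N, and in all 16 mice. Kcnq5 fell by 0.82 (adjusted p = 0.0154) and 1.23 (adjusted p = 0.00328), likewise in all 16 mice. Adcy1, an adenylyl cyclase, fell by 1.41 (adjusted p = 0.0024) and 1.42 (adjusted p = 0.00467). Plcb4 fell in C57BL/6J only by the test, by 0.79 (adjusted p = 0.0159), against -0.30 in B6D2F1N (adjusted p = 0.665), and the test of portion by strain called no gene.

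The strains were compared within each housing and portion, and none of the 10 members passed the test. edgeR called 0.370% of 24305 genes in the anterior portion in standard housing, 0.373% of 25171 in the posterior portion in standard housing, 0.0639% of 23459 in the anterior portion in enriched housing and 0.394% of 25640 in the posterior portion in enriched housing. At an unadjusted p under 0.05 there were 1 of 10, 2 of 9, 0 of 10 and 1 of 10 members in these comparisons, beside 2187, 2605, 1016 and 2336 of the genes tested, and DESeq2 called no member. Anterior Chrm2 in standard housing was the first of these, with 28.9, 35.6, 37.9 and 48 CPM in the 4 C57BL/6J libraries and 33.9, 51.4, 55.7, 57.8 and 130 CPM in the 5 B6D2F1N libraries. The groups overlapped, and the log2 fold change, B6D2F1N over C57BL/6J, was 0.80 (SE 0.3, adjusted p = 0.539). Posterior Chrna4 in standard housing had a mean of 10.5 ± 5.86 CPM in C57BL/6J mice, against 25.7 ± 20.7 CPM in B6D2F1N (log2 fold change 1.32, SE 0.61, adjusted p = 0.482). Without B6D2F1N standard mice 2 and 3, the libraries high in Tcf7l2, it was at 10.5 and 11.2 CPM (0.10, SE 0.54, adjusted p = 0.984). Posterior Chrnb3 in standard housing had 1 count in the 4 C57BL/6J libraries together and 148 in the 5 B6D2F1N libraries, all of them in mice 2 and 3. Posterior Chrm1 in enriched housing had a mean of 321 ± 184 CPM in C57BL/6J mice, against 202 ± 53.8 CPM in B6D2F1N (-0.66, SE 0.3, adjusted p = 0.534), and the 593 CPM of C57BL/6J mouse 1 was the highest value. Chrnb2 had the narrowest limits: its log2 fold changes between strains lay between -0.23 and 0.30 with standard errors of 0.21 to 0.27.

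Housing was compared within each strain and portion. The members again passed no edgeR test: 0 of 10 in the anterior portion of C57BL/6J, where 0% of 22865 genes were called, 0 of 9 in its posterior portion (0.0163% of 24526 genes), and 0 of 10 in the anterior and posterior portions of B6D2F1N (0% of 24639 and 0% of 26028 genes). At an unadjusted p under 0.05 there were 0, 3, 0 and 0 members, and 1418, 2515, 1553 and 1716 genes. DESeq2 called 100, 319, 8 and 13 genes. Among them was 1 member, Chrnb3 in the posterior portion of C57BL/6J. In C57BL/6J the housings are also separated by the second number in the sample titles, 24 to 35 in standard and 5 to 15 in enriched mice, so that what this number stands for and housing cannot be told apart there.

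The 3 members were Chrm3, Chrna4 and Chrnb3, all higher in enriched mice of the posterior C57BL/6J comparison. Chrm3 was at 4.38, 9.97, 5.81 and 7.62 CPM in standard mice 1 to 4 and at 21.9, 16.6, 10.6 and 11.6 CPM in enriched mice 1 to 4. The log2 fold change was 1.13 (SE 0.36), with an edgeR adjusted p of 0.353. These groups did not overlap, but the share of all genes without overlap was not counted, so that nothing is drawn from it. Chrna4 was at 12.4, 17.9, 5.11 and 6.55 CPM in standard and 27, 28.9, 10.3 and 21.2 CPM in enriched mice (log2 fold change 1.06, SE 0.42, adjusted p = 0.458), and these groups overlapped. Tcf7l2 was 37.4 to 61.4 CPM in the 4 standard and 43.3 to 142 CPM in the 4 enriched libraries. Of the enriched ones, 2 were above 90 CPM. The 8 oligodendrocyte markers summed to 8182 to 12830 CPM in the standard and 18150 to 28430 CPM in the enriched libraries. Only 1 of these 8 markers was called higher. The part of Tcf7l2 or of these markers in the housing differences of Chrm3, Chrna4, Chrnb3 and Chrna6 was not tested. Without those 2 libraries, Chrm3 had a log2 fold change of 1.27 (adjusted p = 0.41) and Chrna4 of 1.2 (adjusted p = 0.478) with 2 enriched mice left. Between the housings of B6D2F1N, posterior Chrm3 was at 9.49 ± 5.69 CPM in standard and 7.37 ± 5.7 CPM in enriched mice and Chrna4 at 25.7 ± 20.7 and 19.4 ± 10.9 CPM. The strain by housing test in the posterior portion gave log2 differences of -1.50 (SE 0.78, adjusted p = 0.636) for Chrm3 and -1.48 (SE 0.78, adjusted p = 0.643) for Chrna4, so that a difference between the strains was not shown.

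Chrna6 and Chrnb3, the subunits known from dopamine neurons, were present in some libraries and at 0 in others. Posterior Chrna6 in C57BL/6J had 0 counts in each of the 4 standard libraries and 23, 216, 19 and 72 counts in enriched mice 1 to 4, or 1, 10.5, 0.815 and 3.87 CPM. This pattern is described without a test. With 3 counts allowed in each standard library, the enriched mean of 4.04 CPM was at least 32.2-fold higher, and at least 15.1-fold higher without mouse 2. Outside this comparison, Chrna6 had counts in 1 of 4 and 1 of 2 anterior C57BL/6J libraries in standard and enriched housing, in 2 of 5 and 1 of 5 anterior B6D2F1N libraries, and in 2 of 5 and 4 of 6 posterior B6D2F1N libraries, with a highest level of 3.19 CPM. No housing difference of Chrna6 passed the test in B6D2F1N (adjusted p = 1.00 in anterior and 0.999 in posterior).

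Chrnb3 had 0, 0, 1 and 0 counts in the posterior libraries of C57BL/6J standard mice 1 to 4 and 12, 226, 0 and 47 counts in enriched mice 1 to 4. The ratio of the summed counts, 285 to 1 at these depths, was 320 with a 95% exact interval of 57 to 12700, which covers counting error only. The edgeR adjusted p was 0.182 and that of DESeq2 0.0448, and without the 2 enriched libraries high in Tcf7l2 edgeR gave 0.213. Without enriched mouse 3, which had 0 counts, the edgeR adjusted p was 0.00938, and with no minimum count it was 0.0135. Chrnb3 passed the count minimum of this comparison only through enriched mice. None of these p-values is therefore taken as support for a housing difference. Enriched mouse 2 held 226 of the 285 counts. Without that mouse the edgeR log2 fold change was 6.03, the lowest of the fits with each mouse left out (highest 9.29). Over all 35 libraries, 12 had counts of both genes, 3 of Chrna6 alone, 9 of Chrnb3 alone and 11 of neither. In the anterior portion Chrnb3 was the more frequent of the pair, in 12 of 16 libraries against 5 for Chrna6, and in the posterior portion they were found in 9 and 10 of 19 libraries.

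**Figure D4:**
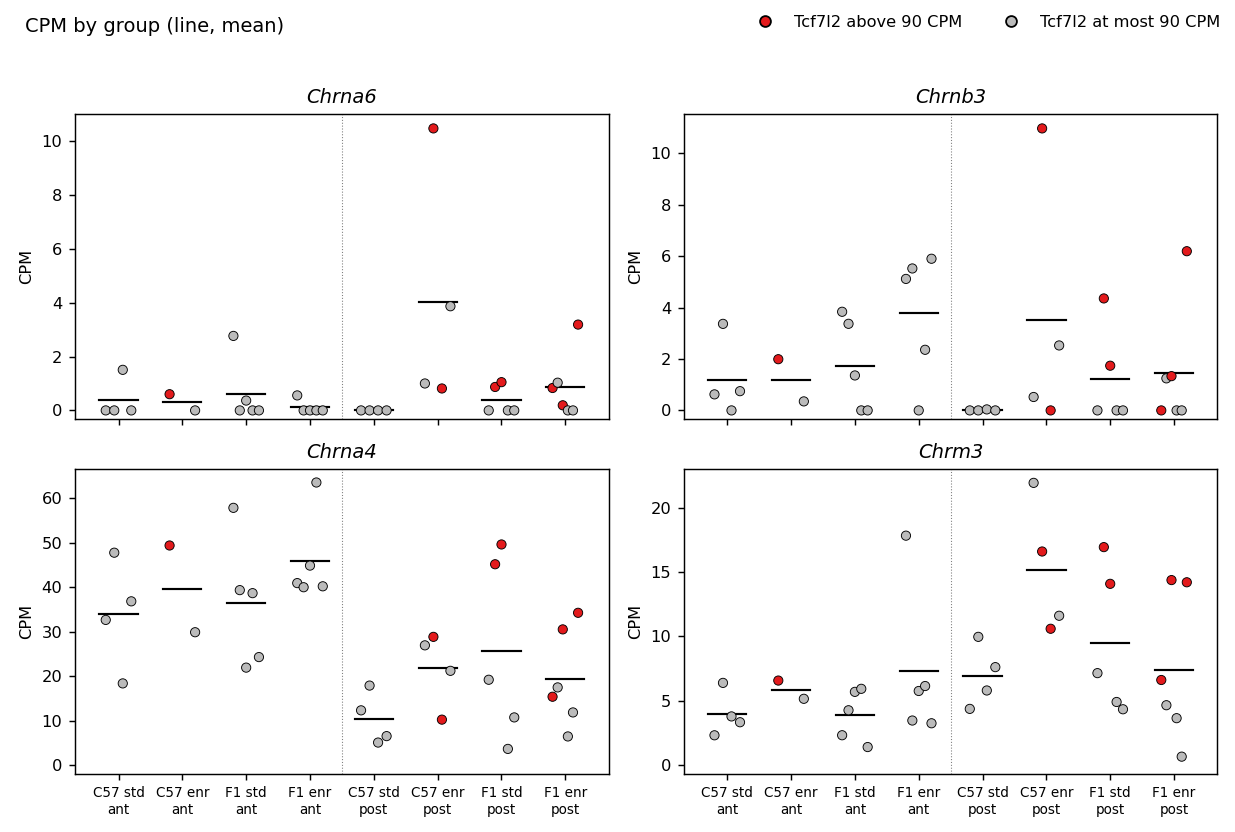
Level of Chrna6, Chrnb3, Chrna4 and Chrm3 in CPM in each library of the 8 groups (C57 for C57BL/6J, F1 for B6D2F1N, std and enr for standard and enriched housing, ant and post for the portions); lines are means and red points are the 8 libraries with Tcf7l2 above 90 CPM. Chrna6 is at 0 in the 4 C57BL/6J standard posterior libraries and reaches 10.5 CPM in an enriched one.

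Slc6a3 and Th, markers of dopamine neurons, were highest in the library with the most Chrna6. The posterior library of C57BL/6J enriched mouse 2, with 10.5 CPM of Chrna6 and 11 CPM of Chrnb3, had 101 CPM of Slc6a3, the dopamine transporter, and 38.5 CPM of Th, tyrosine hydroxylase. In the other 34 libraries Slc6a3 reached at most 6.61 CPM, in enriched mouse 4 of the same group, which had the second-highest Chrna6 level. The 6 markers of midbrain dopamine neurons summed to 255 CPM in the library of mouse 2 and to 122 CPM or less elsewhere. Over the 35 libraries that sum had a median of 77.3 CPM, beside medians of 0.81 CPM for Th and 0.12 CPM for Slc6a3. In most libraries it thus came mainly from other genes of the list, and the levels of Slc18a2 and Ddc are not reported here. The library with 122 CPM, the anterior one of B6D2F1N standard mouse 3, had 26.7 CPM of Th and 0 of Slc6a3. The posterior library of C57BL/6J enriched mouse 2 had 0.825 CPM of En1 and 0.0485 CPM of Pitx3, which was barely detected. Both genes were at 0 in all anterior libraries. Both also had counts among the C57BL/6J standard posterior libraries, where Chrna6 was at 0, and Pitx3 among the B6D2F1N posterior ones. Slc6a3 was at 0.883 to 2.19 CPM in those C57BL/6J standard libraries. It ranged from 0 to 101 CPM in the C57BL/6J enriched posterior libraries, all of which had Chrna6 counts. All 7 posterior libraries above 90 CPM of Tcf7l2 had counts of Chrna6. Of the 12 others, 3 did, and 4 of the 9 without are the C57BL/6J standard libraries whose absence of Chrna6 was known when the gene was chosen. The part of these markers in the Chrna6 and Chrnb3 levels was not tested.

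**Figure D5:**
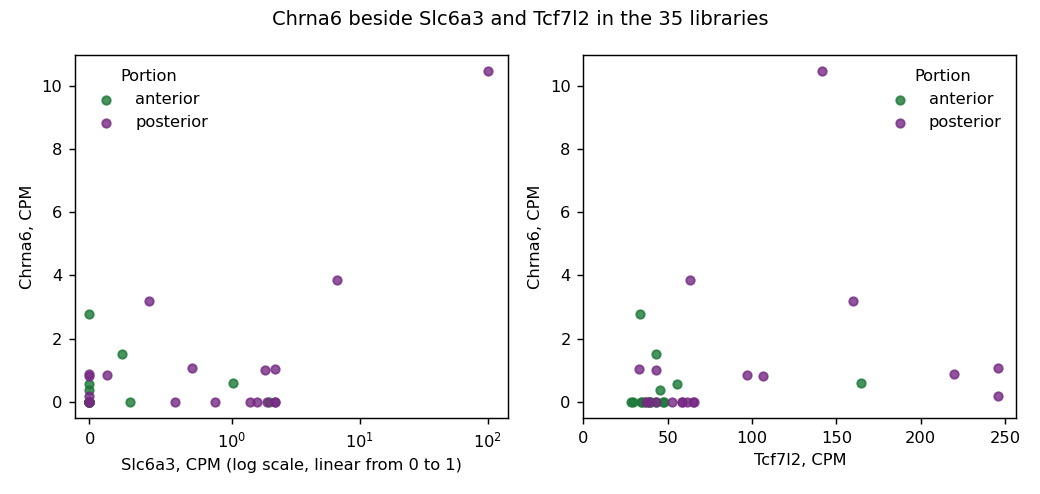
Chrna6 level against Slc6a3 (left, log scale that is linear from 0 to 1) and Tcf7l2 (right), all in CPM, in the 16 anterior and 19 posterior libraries, 1 point each. The library with 10.5 CPM of Chrna6 is the one with 101 CPM of Slc6a3, and has 142 CPM of Tcf7l2.

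The differences between these differences were tested directly. No member and no gene at all passed the edgeR test of whether the portion difference depended on strain (0% of 29437 genes), whether the strain difference depended on housing in the anterior (0% of 26353) or posterior portion (0% of 27871), or whether the portion difference depended on housing in C57BL/6J (0% of 25751) or B6D2F1N (0% of 27761). At an unadjusted p under 0.05 edgeR counted 871, 1576, 2335, 1274 and 1099 genes in these 5 tests, and DESeq2 called 6, 11, 37, 33 and 41 genes, none of them a member. For Chrna4 and Chrm2, called in portions of 1 or both strains, the portion difference in B6D2F1N minus that in C57BL/6J was 0.47 (SE 0.49) and -0.43 (SE 0.4) on the log2 scale, so that a difference between the strains was not shown. Chrm1 had the smallest unadjusted p among the members for portion by housing in C57BL/6J (0.0137), with a log2 difference of 1.04 (SE 0.39, adjusted p = 0.805) that ranged from 0.34 to 1.76 when each mouse was left out.

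The genes whose levels ran most like each member were found by Pearson's r of log2 CPM over the 35 libraries, which share portions and mice, among 16021 genes with a mean of at least 1 CPM (16022 for Chrna6). The closest patterns belonged to Chrm1, with Fam234b (r = 0.918), Pld3 (0.912) and Faim2 (0.889). Chrna4 ran with Rph3a (0.829), Chrm2 with Ugcg (0.834), Kcna6 (0.83) and Cthrc1 (0.822), and Chrnb2 with Spock2 (0.832), Clstn3 (0.792) and Cds2 (0.791). Chrna7 was most like Cpq (0.739), Vcam1 (0.713) and Pear1 (0.693), and Chrm3 most like Cplx2 (0.698), Nfix (0.677) and Pkp4 (0.661). For the sparse members the genes were Cables2 (0.736), Slc13a1 (0.67) and Usp8 (0.637) for Chrna5, Lgi3 (0.697) and Ccer2 (0.686) for Chrnb3, Rhog (0.679), Micall1 (0.67) and Qdpr (0.662) for Chrna6 and Gm37666 (0.631), Cenpp (0.625) and Siah2 (0.588) for Chrna3. Between members, the highest r was 0.681 for Chrna4 and Chrnb3, followed by 0.601 for Chrna4 with Chrm2 and for Chrnb2 with Chrm1.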

How the data were processed

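The authors sequenced amygdala libraries, reading 72 bases from one end, and 35 libraries of 19 mice were analysed here. Trimming was by Trimmomatic 0.38, alignment by HISAT2 2.1.0 (GRCm38), sorting by SAMtools 1.8, and HTSeq 0.11.2 made the gene counts, with FastQC 0.11.7 for read quality. The deposited values are raw read counts per Ensembl gene, neither normalized nor filtered by the authors, and the annotation release and strand setting of the counting were not given in the sources used here. HTSeq's tallies of unassigned reads (13.7 to 26.4% without a gene, 3.06 to 3.74% ambiguous, 6.23 to 10.9% not unique) were left out. Symbols, exon lengths and positions came from GENCODE M21 (52489 of 52636 identifiers), and no 2 libraries of the 595 pairs were identical.

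Tests used edgeR 4.0.16 and DESeq2 1.42.0 in R 4.3.3, the rest Python 3.11.15. A gene entered a comparison if its counts there summed to 10 or more. Counts were scaled by TMM (factors 0.811 to 1.23) and tested with edgeR's quasi-likelihood F test, p-values being adjusted by the Benjamini-Hochberg method over all genes tested, with a threshold of 0.05. Standard errors are the log2 fold change divided by the square root of F. Portions were compared with the mouse as a block, strains and housings without covariates. CPM values are TMM scaled, and log2 CPM carries a prior count of 2. SDs are over the mice of a group, except those of the levels per kb. These are over all 35 libraries, with both portions pooled. The labels name the mouse of each library. Taken as departures from the group mean over 15070 genes, both libraries of one mouse had a median r of 0.0529 (range -0.106 to 0.215, 16 mice), and libraries of different mice -0.0304. All 10 members are named. Beside each stand the genes with the highest r, up to 3, some of which are not reported here. From the pathway lists Chat, Ache, Chrnb4, Chrm4 and every gene past the threshold in a comparison of portion, strain or housing are named. The members, lists and tests were chosen with earlier results of these data known. Alternatives were DESeq2, its size factors, filterByExpr, no minimum count, no mouse block, 1 fit for all groups of a portion, a term for the second title number, each mouse left out, CPM without TMM and, added after the data were seen, leaving out the libraries above 90 CPM of Tcf7l2. The tests were checked on simulated counts.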

Additional observations from a re-analysis of the deposited data

Results flagged for a closer look

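Dixon's criterion was applied to 69 pairs of a receptor gene and a group of 4 to 6 libraries. In 11 of them (15.9%), the highest library stood apart from the others of its group. Chance meets the criterion in about 1 in 20 groups of normally distributed values only. A group with counts in a single library meets it whatever the level, so that the 15.9% cannot be set against that rate. For Chrna4, B6D2F1N enriched mouse 4 had 63.6 CPM in the anterior portion, against 44.9 CPM in the next library. Chrm2 reached 129.5 CPM in the anterior library of B6D2F1N standard mouse 1, the mouse without Xist counts, against 57.8 CPM in the next. Chrm3 was at 17.8 CPM in the anterior library of B6D2F1N enriched mouse 1, against 6.15 CPM. Chrna7 was at 12.9 CPM in the anterior library of C57BL/6J standard mouse 2, against 5.76 CPM, and at 8.8 CPM in the posterior library of C57BL/6J enriched mouse 3, against 3.01 CPM.

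The other 6 belong to the genes with many libraries at 0. Chrna6 was at 1.51 CPM in the anterior library of C57BL/6J standard mouse 3 and at 0.557 CPM in that of B6D2F1N enriched mouse 1, where the rest of each group were at 0. It was at 2.77 CPM in the anterior library of B6D2F1N standard mouse 1, against 0.366 CPM in the next, and at 3.19 CPM in the posterior library of B6D2F1N enriched mouse 6, against 1.03 CPM. That last library also stood apart for Chrnb3, at 6.19 CPM against 1.33 CPM, and it was among those above 90 CPM of Tcf7l2. In the posterior library of C57BL/6J standard mouse 3, Chrnb3 was at 0.039 CPM, a single count, with the other 3 at 0.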

How the results depend on the processing

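The log2 fold changes of Chrna4, Chrm1 and Chrm2 for portion in both strains, of Chrm3 for portion in C57BL/6J and of Chrnb3 for housing in the posterior portion of C57BL/6J were recomputed under each alternative, and 96 of the values kept their direction and side of the threshold, 11 lost the call, 10 gained it and none reversed. The members called for portion in C57BL/6J, 2 with the mouse as a replicate block, were 1 without the block in the same libraries (Chrna4) and 0 without the block in all libraries of the strain. Leaving out each mouse gave 1 to 3, and in B6D2F1N also 1 to 3. The housing comparison of the posterior portion of C57BL/6J, with 0 members called, gave 1 (Chrnb3) with DESeq2 and 1 with no minimum count, and 0 to 1 when each mouse was left out. DESeq2 called 3 members for portion in each strain, and no minimum count 3 in B6D2F1N. The other member counts were equal to the main ones under every alternative, and dropping the block changed no other count of members. Signs of members that passed no test turned without the libraries high in Tcf7l2, beside those given for portion: Chrm1 and Chrm3 for strain in standard posterior libraries (-0.04 to 0.26 and 0.47 to -0.35), Chrm2 for strain in enriched posterior libraries (0.58 to -0.14) and Chrna4 and Chrna5 for housing in the posterior portion of B6D2F1N (-0.44 to 0.09 and -0.29 to 3.20). The cause of these changes was not tested.

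Counts over all genes moved more. DESeq2 called 1535 and 1994 genes for portion in C57BL/6J and B6D2F1N, against 937 and 1110, and 254, 392, 137 and 342 genes for strain against 90, 94, 15 and 101. In enriched anterior libraries, the 15 genes for strain became 57 with no minimum count and 44 with 1 fit for all groups of the portion. For housing in C57BL/6J, no minimum count gave 274 genes in anterior against 0 and 112 in posterior against 4, where 1 fit for all groups and a term for the title number gave 0. Leaving out each mouse gave 0 to 172 genes in that posterior comparison. No minimum count also gave 2 genes for portion by strain and 69 and 4 for portion by housing in C57BL/6J and B6D2F1N, against 0. Without the libraries high in Tcf7l2 there were 648 genes for portion in B6D2F1N, 53 and 19 for strain in standard and enriched posterior libraries, and 39 for housing in the posterior portion of C57BL/6J. With 2 anterior libraries of enriched C57BL/6J mice and low counts of Chrna3, Chrna5, Chrna6 and Chrnb3, differences in these genes had wide errors. For strain and housing, p-values measure the spread between mice, which were co-housed in groups. For portion, with the mouse as a block, they measure how the difference within a mouse varied from mouse to mouse.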
